A study of Mus musculus with 9 samples.

Results

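Genes of sterol and fatty acid synthesis were followed through 3 stages of mouse mid-foregut development. The set had 30 members: 18 enzymes of sterol synthesis, 5 enzymes of fatty acid synthesis, 5 regulators of the SREBP transcription factors, and the 2 sterol export proteins NPC1 and NPC2. A member was measured by every array probe set whose only gene symbol was its own, which gave 57 probe sets for 28 members, of 12393 genes with such a probe set. Acat2 and Insig1 had none under that rule and were not analysed here. Of the 28, 27 had a mean signal above a filter level of 80.1 and were tested among 8675 genes, and Acaca lay below it. In tests over genes, each member was represented by its brightest probe set.

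The mid-foregut is the length of gut tube between the pharyngeal arches and the liver, where lung budding begins, and the study asked which genes are regulated during that induction. All embryos were wild type, and they were staged by somites, the paired mesoderm blocks that form in sequence along the body axis. The groups were 16-20 somites (embryonic day 8.5), 21-25 somites (embryonic day 9.0) and 26-30 somites (embryonic day 9.5), with 3 biological replicates each. A replicate was 1 pool of 5 to 10 foreguts on 1 Affymetrix array, so the spread given below is that between pools and arrays together, and precision is limited by the few arrays.

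The arrays differed in ways that bear on the values below. On 21-25 somites replicate 1 and on 26-30 somites replicates 1 and 2 the highest signal was 27480 to 32584, against 43792 to 61749 on the other 6 arrays, so they are termed narrow-range below. The ratio of 3' to 5' actin signal, a sign of RNA integrity after amplification, ran from 20.9 to 45.3 and was highest on 21-25 somites replicate 2. On 16-20 somites replicate 2 the summed signal of 15 hepatic and yolk sac markers was 42168, against 2070 to 10118 on the other arrays, and that of 14 cardiac markers was 19155, against 2427 to 7602. Of these markers, 9 of the 15 and 11 of the 14 had a mean above the filter level. No marker of either list was listed at 0 on any array. The summed signal of 7 erythroid markers was 57837 on 26-30 somites replicate 3, against 18103 to 40584 on the other arrays. The label of the tissue was checked with defining markers. In foregut endoderm 7 of 8 were above the filter level, with Foxa2 between 459.9 and 883, while the lung and thyroid factor Nkx2-1 had a mean below it, with 7.20 to 98.6 on single arrays. In foregut mesenchyme 3 of the 5 on the array were above it, and Foxf1 and Tbx4 were below. Markers above the level were also compared between stages. Higher at 26-30 than at 16-20 somites were 0 of 9 hepatic and yolk sac, 0 of 11 cardiac and 4 of 7 erythroid markers. So were 5 of 7 endoderm, 3 of 3 mesenchyme and 0 of 2 neural tube markers, where 51% of all genes were. The part of cell composition in the members' differences was not tested.

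Cholesterol is built from acetyl units through mevalonate, isoprenoids, squalene and lanosterol, and the same acetyl units feed the synthesis of long-chain fatty acids. Both routes are switched on by the SREBP factors, which are held in the endoplasmic reticulum by SCAP and the INSIG proteins while sterols are plentiful and are released to the nucleus when sterols run short. In embryos cholesterol is a membrane lipid and is also attached to Hedgehog proteins, signals that the foregut endoderm sends to its mesenchyme.

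SREBP factors act on short sterol response elements, usually beside boxes for the factors NF-Y and Sp1, so the start sites of the members were searched for 3 motifs on both strands. These were the sterol response element core TCACNCCAC, the NF-Y box CCAAT and the Sp1 box GGGCGG. RefSeq windows of 300 bases, from 250 before to 50 after a start site on GRCm38.p6, were at hand for 24 members. The NF-Y box was found in a window of 20 of the 24 (83.3%), against 41.1% of 27025 genes, and in 90.5% of the 21 tested members with a window, against 42.9% of 7045 tested genes. The Sp1 box was found in 83.3% of members and 38.2% of genes, and in 85.7% of tested members and 68.8% of tested genes. The sterol response element core in these letters was in the window of 1 member, Hmgcs1, and of 1.44% of genes. A match is a description of the letters, and genes with several start sites had several windows. The windows of 6 members are shown because the comparisons of stages below turn on them. Capitals mark the motif matches on either strand.

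Hmgcs1 (chr13:119690101-119690400, plus strand): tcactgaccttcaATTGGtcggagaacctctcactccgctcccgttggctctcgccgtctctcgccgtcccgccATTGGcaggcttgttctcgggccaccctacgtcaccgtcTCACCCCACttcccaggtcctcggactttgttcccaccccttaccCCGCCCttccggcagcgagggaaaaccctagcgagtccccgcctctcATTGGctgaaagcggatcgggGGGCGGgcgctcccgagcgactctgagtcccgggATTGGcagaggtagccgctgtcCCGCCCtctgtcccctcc
Cyp51 (chr5:4104648-4104947, minus strand): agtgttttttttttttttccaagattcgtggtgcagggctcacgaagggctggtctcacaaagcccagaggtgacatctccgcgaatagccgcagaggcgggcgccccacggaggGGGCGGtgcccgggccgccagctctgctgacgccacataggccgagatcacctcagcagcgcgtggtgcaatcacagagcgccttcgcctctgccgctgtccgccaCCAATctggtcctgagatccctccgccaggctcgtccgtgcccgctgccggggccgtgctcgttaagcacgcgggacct
Aacs (chr5:125475623-125475922, plus strand): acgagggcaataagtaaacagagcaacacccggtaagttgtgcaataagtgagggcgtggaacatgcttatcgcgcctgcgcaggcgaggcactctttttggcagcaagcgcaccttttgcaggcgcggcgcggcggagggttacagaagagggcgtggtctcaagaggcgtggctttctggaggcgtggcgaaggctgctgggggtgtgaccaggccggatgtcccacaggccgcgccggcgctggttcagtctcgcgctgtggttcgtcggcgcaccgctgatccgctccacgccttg
Pmvk (chr3:89454291-89454590, plus strand): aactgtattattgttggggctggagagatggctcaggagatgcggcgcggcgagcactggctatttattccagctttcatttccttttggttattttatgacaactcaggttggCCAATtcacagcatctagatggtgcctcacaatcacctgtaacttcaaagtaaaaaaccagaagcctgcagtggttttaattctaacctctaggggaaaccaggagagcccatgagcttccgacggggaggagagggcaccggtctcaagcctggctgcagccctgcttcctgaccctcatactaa
Lss (chr10:76531355-76531654, plus strand): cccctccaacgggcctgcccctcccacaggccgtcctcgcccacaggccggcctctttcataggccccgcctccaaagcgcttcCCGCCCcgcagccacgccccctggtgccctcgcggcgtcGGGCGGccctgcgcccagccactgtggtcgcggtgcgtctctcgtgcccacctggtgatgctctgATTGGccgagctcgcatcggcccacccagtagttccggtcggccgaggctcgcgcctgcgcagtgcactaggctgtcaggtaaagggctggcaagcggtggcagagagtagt
Fasn (chr11:120824498-120824797, minus strand): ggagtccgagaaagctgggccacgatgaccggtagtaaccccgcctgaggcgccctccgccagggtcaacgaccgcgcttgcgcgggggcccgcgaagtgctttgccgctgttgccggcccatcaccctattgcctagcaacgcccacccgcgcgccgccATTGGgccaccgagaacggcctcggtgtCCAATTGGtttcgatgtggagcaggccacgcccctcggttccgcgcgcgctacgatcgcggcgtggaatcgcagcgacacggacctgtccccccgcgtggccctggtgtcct

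In the Hmgcs1 window the sterol response element core began 137 bases before the start site, among 4 NF-Y boxes and 3 Sp1 boxes. Cyp51 had 1 NF-Y box and 1 Sp1 box, and Lss had 1 NF-Y box and 2 Sp1 boxes. Pmvk had 1 NF-Y box in the window shown, which belongs to the first of its 2 start sites. The window of its other start site held none of the 3 motifs. Fasn had 3 NF-Y boxes and no Sp1 box in these letters, and 2 of its NF-Y boxes overlap on opposite strands. The Aacs window held none of the 3 motifs.

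Between 26-30 and 16-20 somites the sterol enzymes had differences in both directions. By brightest probe set, Cyp51, Aacs, Hmgcs1 and Sqle had higher signals on all 3 arrays of 26-30 somites than on any of 16-20 somites. Pmvk and Lss had lower signals on all 3 by the same measure. These were 4 and 2 of the 17 sterol enzymes tested, where 11.2% and 10.2% of all tested genes stood apart in those directions. The other probe sets of Aacs and Cyp51 overlapped between these stages, and a dimmer one of Lss was wholly higher. Fasn, the fatty acid synthase, had the widest difference among the fatty acid enzymes, toward lower signal at 26-30 somites. In their brightest probe sets, the 4 tested regulators of SREBP had differences between -0.29 and 0.09 on the log2 scale. No member passed an adjusted p of 0.05 in the limma fit, and neither did any of the 8675 genes (0%). The smallest adjusted p of a member was 0.351, for Pmvk.

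Signals are the deposited linear intensities, and differences between stages are on the scale of log2(signal + 26.1), which understates the change of dim probe sets. At an unadjusted p under 0.05, 3 members were higher and 2 lower at 26-30 than at 16-20 somites, against 6.33% and 4.8% of all tested genes. These 5 members, against 11.1% of all genes in either direction, became 1 when 26-30 somites replicate 1 was left out, 3 when 16-20 somites replicate 1 was, and 2 in the fit that omits the narrow-range arrays. Counted by arrays alone, 5 members were wholly higher and 2 wholly lower at 26-30 somites, against 11.2% and 10.2% of all genes. Of the 17 sterol enzymes tested, 11 had a positive difference, with a median of 0.11, beside 0.01 over all genes, of which 51% were positive. The 4 fatty acid enzymes tested had 2 positive differences and a median of 0.03, which was -0.0237 without 16-20 somites replicate 1, and the 4 SREBP regulators had 1 and a median of -0.16. Since each pool held many cell types, fewer cells of a type and less RNA per cell cannot be told apart in any of these values.

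**Figure D1:**
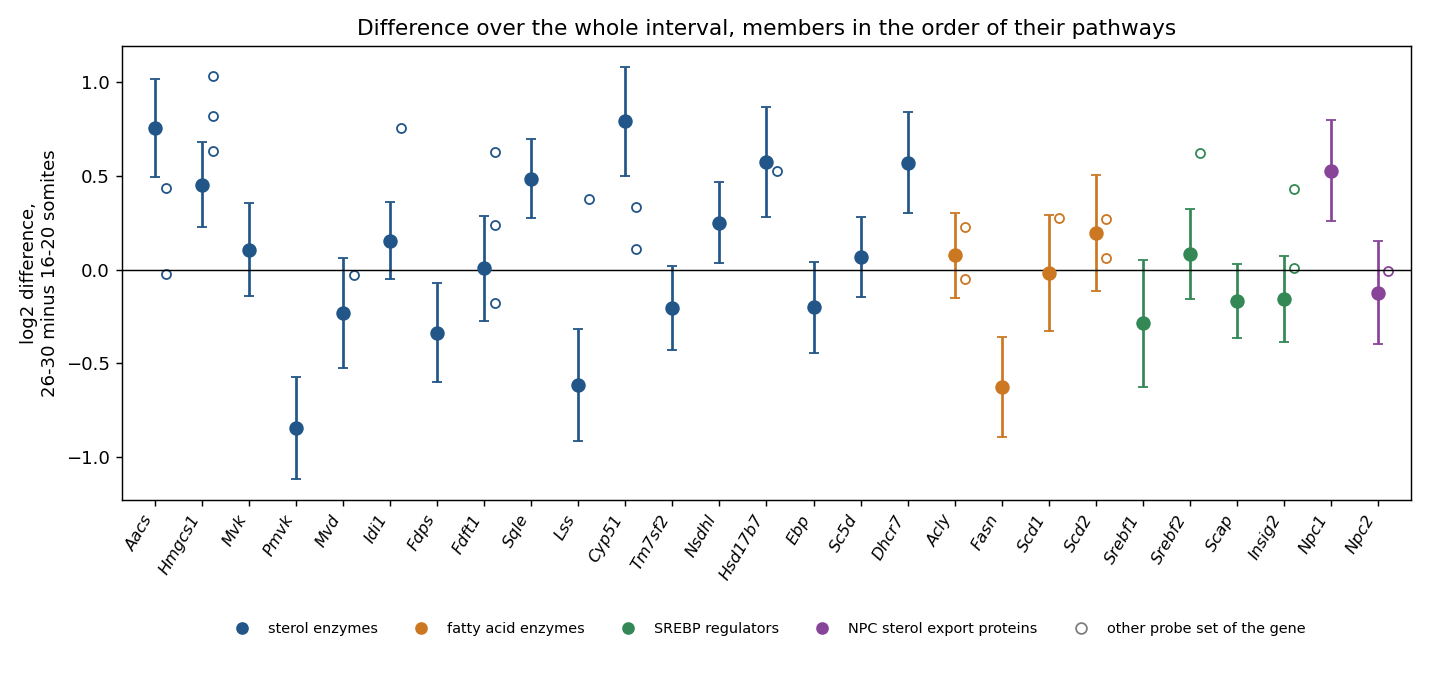
Log2 difference of each tested member between 26-30 and 16-20 somites, on the vertical axis, with members in the order of their pathways along the horizontal axis; filled points are the brightest probe set with its standard error from the limma fit, open points are other probe sets of the same gene. Among the filled points, sterol enzymes run from -0.85 for Pmvk to 0.79 for Cyp51, and the SREBP regulators from -0.29 to 0.09. Other probe sets are drawn only where they are above the filter level. Their open points reach 1.03 for Hmgcs1, 0.62 for Srebf2 and 0.43 for Insig2, and the lowest is -0.18, for Fdft1.

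At the entry of the sterol pathway, Aacs makes acetoacetyl-CoA from free acetoacetate in the cytosol, and Hmgcs1 makes HMG-CoA, the precursor of mevalonate. Aacs had signals of 205, 277 and 284 at 16-20 somites, 437, 271 and 302 at 21-25 somites and 545, 493 and 324 at 26-30 somites. Every array of 26-30 somites lay above every array of 16-20 somites, and the middle stage overlapped both. The mean was 454 ± 115 at 26-30 somites, against 255 ± 43.8 at 16-20 somites (SD, n = 3 each). The log2 difference was 0.75 ± 0.26 (SE), with an unadjusted p of 0.0138 and an adjusted p of 0.368 in limma. Its 2 dimmer probe sets gave -0.03 and 0.44, and the value of the brightest was 0.33 without the narrow-range arrays.

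Of 14 members with 2 or more probe sets above the filter level, 8 had the same sign in all of them over the whole interval. Hmgcs1, among these 8, was chosen after its values were seen, because its probe sets had the same sign. That agreement is therefore no support for its difference. The brightest had 7604, 9956 and 8331 at 16-20 somites, 8111, 8629 and 12773 at 21-25 somites and 10623, 11230.2 and 13610.4 at 26-30 somites. The lowest array of 26-30 somites was above the highest of 16-20 somites, and 21-25 somites replicate 3 was as high as the last stage. The log2 difference was 0.45 ± 0.23, with an adjusted p of 0.469 in limma. The other 3 probe sets gave 0.63, 0.82 and 1.03, and in each of the 4 probe sets the arrays of both stages stood wholly apart. In those other 3, the highest array was the narrow-range 21-25 somites replicate 1, at 3685, 469 and 2526. There the narrow-range replicates 1 and 2 of 26-30 somites were also above replicate 3, while in the brightest probe set replicate 3 was highest. The part of array range in these values was not tested. Probe sets of 1 gene read the same RNA pools, so they are not replicates of the stage.

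Among the enzymes that turn mevalonate into isoprenoid units, Pmvk had the widest difference. Pmvk, phosphomevalonate kinase, had 719, 660.2 and 849 at 16-20 somites, 321, 507 and 692 at 21-25 somites and 466, 329 and 416 at 26-30 somites. All 3 arrays of 26-30 somites lay below all 3 of 16-20 somites, and the middle stage reached from below the last stage into the range of the first. Means were 403 ± 69.4 at 26-30 somites and 743 ± 96.4 at 16-20 somites (SD, n = 3 each). The log2 difference was -0.85 ± 0.27, the widest negative one of the set, with an unadjusted p of 0.00921 in limma. Without the narrow-range arrays it was -0.79.

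Mvk, mevalonate kinase, which acts just before Pmvk, had a difference of 0.11 ± 0.25, and Mvd, the decarboxylase just after it, -0.23 ± 0.29. Idi1 interconverts isopentenyl and dimethylallyl diphosphate, the isoprenoid units. Its brightest probe set gave 0.15 ± 0.21, while its other probe set gave 0.76 and stood wholly apart between the stages.

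Fdps makes farnesyl diphosphate, the branch point to squalene and to protein prenylation. It had 282, 356 and 301 at 16-20 somites, 166, 156 and 308 at 21-25 somites and 210.3, 232 and 287 at 26-30 somites. Replicates 1 and 2 of 21-25 somites were the lowest of the 9 arrays, and replicate 3 was within the range of 16-20 somites. Its difference of 21-25 from 16-20 somites was -0.58 ± 0.26, with an unadjusted p of 0.0493 and an adjusted p of 0.452 in limma, and over the whole interval it was -0.34. With arrays weighted by their fit the first of these values was -0.18, and it ran from -0.85 without 21-25 somites replicate 3 to -0.42 without 21-25 somites replicate 2. Fdft1, squalene synthase, gave 0.01 ± 0.28 over the whole interval, and its other 3 probe sets ran from -0.18 to 0.63.

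The steps from squalene to lanosterol gave opposite signs in the brightest probe sets. Sqle, squalene epoxidase, had 1376, 1697 and 1939 at 16-20 somites, 1929, 2051 and 2107 at 21-25 somites and 2254, 2663 and 2095 at 26-30 somites. The lowest array of 26-30 somites was above the highest of 16-20 somites, and the middle stage, with a narrow spread, overlapped both. Its mean was 2338 ± 293 at 26-30 somites, against 1671 ± 282 at 16-20 somites (SD, n = 3 each), and the log2 difference was 0.48 ± 0.21. The unadjusted p was 0.0399 and the adjusted p 0.429 in limma.

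Lss, lanosterol synthase, closes the ring system in the next step and was also picked after its values were seen. Its signals were 837, 957 and 942 at 16-20 somites, 414, 548 and 852 at 21-25 somites and 389, 714 and 716 at 26-30 somites. All 3 arrays of 26-30 somites were below those of 16-20 somites, and 2 of the 3 arrays of 21-25 somites were as well. The difference was -0.62 ± 0.30, with an adjusted p of 0.459 in limma. A dimmer probe set of Lss gave 0.38, with the arrays wholly apart in the other direction, so the 2 probe sets of this gene above the filter level disagree.

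Cyp51 removes a methyl group from lanosterol, the first step of its conversion to cholesterol. Among the brightest probe sets of the members, it had the widest positive difference. Its signals were 411, 319 and 367 at 16-20 somites, 549, 223 and 414 at 21-25 somites and 774, 632 and 558 at 26-30 somites. All 3 arrays of 26-30 somites were above every array of both earlier stages, which overlapped each other. Means were 655 ± 110.0 at 26-30 somites, against 395 ± 164 at 21-25 somites and 366 ± 46.0 at 16-20 somites (SD, n = 3 each).

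For Cyp51 the log2 difference of 26-30 from 16-20 somites was 0.79 ± 0.29, with an unadjusted p of 0.0190 and an adjusted p of 0.376 in limma. Against 21-25 somites it was 0.76 ± 0.29, with an adjusted p of 0.998; both comparisons use the same arrays of 26-30 somites. The other 2 probe sets of Cyp51 gave 0.34 and 0.11 over the whole interval, but -0.0014 and -0.18 against 21-25 somites, and their arrays overlapped between stages. The mean of its probe sets gave 0.46 over the whole interval and 0.25 in the second step. Without 21-25 somites replicate 2 the second-step value of the brightest probe set was 0.42.

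**Figure D2:**
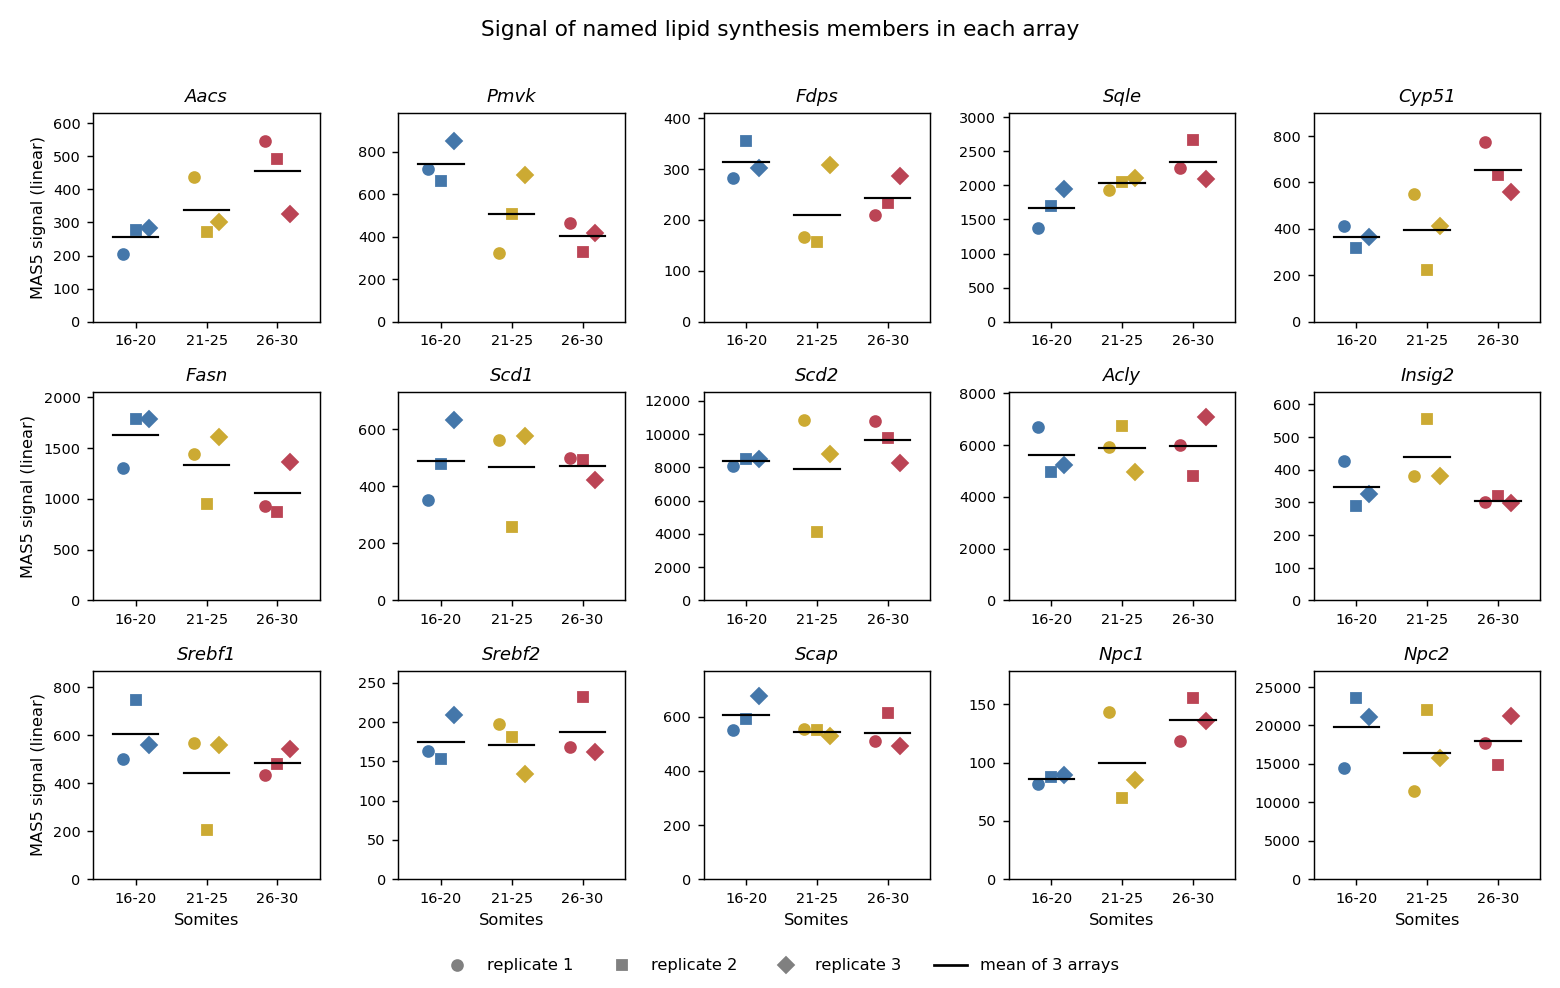
Deposited MAS5 signal (linear vertical axis from 0) of the 15 named members by somite stage, with 1 marker per array, shaped by replicate number, and a line at the mean of 3 arrays. Aacs, Sqle, Cyp51 and Npc1 have all 3 markers of 26-30 somites above those of 16-20 somites, Pmvk has them below, and replicate 2 of 21-25 somites is low for Scd1, Scd2 and Srebf1.

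The 6 tested enzymes that act after Cyp51 on the way to cholesterol gave differences from -0.20 to 0.57. Hsd17b7, the sterol ketone reductase, gave 0.57 ± 0.30 and its second probe set 0.52. Dhcr7, the last enzyme of the pathway to cholesterol, gave 0.57 ± 0.27, with signals of 443, 528 and 355 at 26-30 somites, against 182, 367 and 345 at 16-20 somites. Arrays of both stages overlapped for Dhcr7 and Hsd17b7. Nsdhl, the sterol decarboxylating dehydrogenase, gave 0.25 ± 0.21, the desaturase Sc5d 0.07 ± 0.22, the reductase Tm7sf2 -0.20 ± 0.23 and the isomerase Ebp -0.20 ± 0.24. Unadjusted p values in limma were 0.0565 for Dhcr7 and 0.0761 for Hsd17b7, and 0.264 to 0.760 for the other 4.

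Among the fatty acid enzymes, Fasn, which builds palmitate, had 1303, 1785 and 1784 at 16-20 somites, 1439.6, 947 and 1611 at 21-25 somites and 926, 871 and 1362 at 26-30 somites. Replicates 1 and 2 of 26-30 somites were the lowest of the 9 arrays, replicate 3 lay within the range of 16-20 somites, and the stages overlapped. Means were 1053 ± 269 at 26-30 somites, against 1624 ± 278 at 16-20 somites (SD, n = 3 each). The log2 difference was -0.63 ± 0.27, with an unadjusted p of 0.0377 and an adjusted p of 0.424 in limma. The 2 low arrays are narrow-range arrays, and without the narrow-range arrays the difference was -0.24; the part of array range in it was not tested.

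Acly supplies the acetyl-CoA for both routes, from citrate. It had 6711, 4966 and 5232 at 16-20 somites, 5927, 6739.9 and 4973 at 21-25 somites and 6006, 4823 and 7080.0 at 26-30 somites. The stages overlapped throughout, and the difference was 0.08 ± 0.23 over the whole interval. Its other 2 probe sets above the filter level gave 0.23 and -0.05.

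Scd1 and Scd2 are paralogous desaturases that put the first double bond into saturated fatty acids. Scd1 had 354, 479 and 634 at 16-20 somites, 564, 259 and 578 at 21-25 somites and 499, 494 and 422 at 26-30 somites. Scd2 had 8086, 8482 and 8523 at 16-20 somites, 10846, 4094 and 8831 at 21-25 somites and 10813, 9792 and 8284 at 26-30 somites. For both genes 21-25 somites replicate 2 was the lowest array, and the other arrays overlapped between stages. Differences over the whole interval were -0.02 ± 0.31 for Scd1 and 0.19 ± 0.31 for Scd2. Acaca, acetyl-CoA carboxylase, the committed step of fatty acid synthesis, was dim, at 44.3 to 78.7 on 8 arrays and 189 on 21-25 somites replicate 1.

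Of the SREBP regulators, Srebf1 encodes the factor with most effect on fatty acid genes and had 502, 748 and 560.4 at 16-20 somites, 569.5, 205 and 559 at 21-25 somites and 435, 479 and 541 at 26-30 somites. Its lowest array was 21-25 somites replicate 2, as for the desaturases, and the stages overlapped. The whole-interval difference was -0.29 ± 0.34. Srebf2, whose product acts mainly on sterol genes, had 163, 153 and 209 at 16-20 somites, 197, 181 and 134 at 21-25 somites and 169, 232 and 162 at 26-30 somites. These values overlapped at all stages, with a difference of 0.09 ± 0.24, and a dimmer probe set gave 0.62.

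Scap, the escort of the SREBP precursors, had 552, 589 and 677 at 16-20 somites, 554, 552 and 527 at 21-25 somites and 511, 612 and 491 at 26-30 somites. Its stages overlapped, with differences of -0.17 ± 0.20 over the whole interval and -0.14 ± 0.20 and -0.02 ± 0.20 in the 2 steps. Insig2, the anchor that retains SCAP in the endoplasmic reticulum, had 428, 290.1 and 326 at 16-20 somites, 381, 557 and 382 at 21-25 somites and 300.2, 319 and 298 at 26-30 somites. All 3 arrays of 21-25 somites were above all 3 of 26-30 somites, and those of 16-20 somites spanned both. The difference of 26-30 from 21-25 somites was -0.47 ± 0.23, with an adjusted p of 0.998 in limma, and its other 2 probe sets gave -0.31 and -0.33. The step between the first 2 stages was 0.31 ± 0.23. Over the whole interval the difference of Insig2 was -0.16 ± 0.23, and its other 2 probe sets gave 0.0058 and 0.43. The difference between the 2 steps, the widest in relation to its error among the members, was -0.78 ± 0.40, with an adjusted p of 0.791.

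Npc1 and Npc2 hand cholesterol out of the lysosome. Npc1 was close to the filter level, with 81.3, 88.0 and 89.3 at 16-20 somites, 143, 69.8 and 84.6 at 21-25 somites and 119, 155 and 136 at 26-30 somites. The arrays of 26-30 somites were all above those of 16-20 somites, and the middle stage overlapped both. Its difference was 0.53 ± 0.27, with an adjusted p of 0.470 in limma, and was 0.53 without the narrow-range arrays. Npc2 had 14483, 23609 and 21138 at 16-20 somites, 11503, 22055 and 15761 at 21-25 somites and 17780.2, 14811 and 21255 at 26-30 somites. Its stages overlapped, and the difference was -0.12 ± 0.27.

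The first step, of 21-25 from 16-20 somites, and the second, of 26-30 from 21-25 somites, share the 3 arrays of 21-25 somites, and each shares 3 arrays with the whole interval, so their values are given side by side. In the first step 11 members were positive and 16 negative, with a median of -0.08, beside 50.3% of all genes positive. At an unadjusted p under 0.05 there were 0 higher members and 1 lower one, Fdps, against 5.75% and 5.26% of all genes (11% together); this count of 1 was otherwise, at 0, 2 or 4, under 15 alternatives and stayed at 1 under 7. By arrays, 1 member, Idi1, was wholly higher and 0 were wholly lower, against 6.97% and 7.32% of all genes. In the second step 22 members were positive and 5 negative, with a median of 0.18, beside 50.9% of all genes positive. Here 1 member, Cyp51, was higher and 0 were lower at an unadjusted p under 0.05, against 2.03% and 1.95% of all genes (3.98% together), and 0 members were with probe sets averaged. By arrays, Cyp51 and Nsdhl were wholly higher and Insig2 wholly lower, against 4.48% and 4.83%. No gene passed an adjusted p of 0.05 in either step (0%), and the smallest adjusted p of a member was 0.452 in the first step and 0.998 in the second.

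By class, the sterol enzymes had 8 positive and 9 negative differences in the first step, with a median of -0.07, and 15 and 2 in the second, with a median of 0.24. The fatty acid enzymes had 1 positive of 4 in the first step and 3 of 4 in the second, with medians of -0.15 and 0.05. Without 21-25 somites replicate 2 both medians turned in sign, to 0.09 and -0.15, and without replicate 1 of that stage they were -0.32 and 0.14. For the SREBP regulators the counts were 1 of 4 and 2 of 4, with medians of -0.09 and 0.05; without 16-20 somites replicate 3 the first was 0.0099, and without 21-25 somites replicate 2 the second was -0.11. The sterol median of the first step was 0.0336 and 0.0356 without those same arrays. The negative sterol enzymes of the second step, by their brightest probe sets, were Pmvk at -0.26 ± 0.27 and Idi1 at -0.18 ± 0.21. The other probe set of Idi1 gave 0.50 in this step, with the arrays of 26-30 somites wholly higher, so its probe sets disagree. Without the narrow-range arrays, 12 of the 17 sterol enzymes were positive in the second step and their median was 0.04. Without 21-25 somites replicate 1 the values were 12 and 0.12, and with arrays weighted by their fit they were 10 and 0.13.

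**Figure D3:**
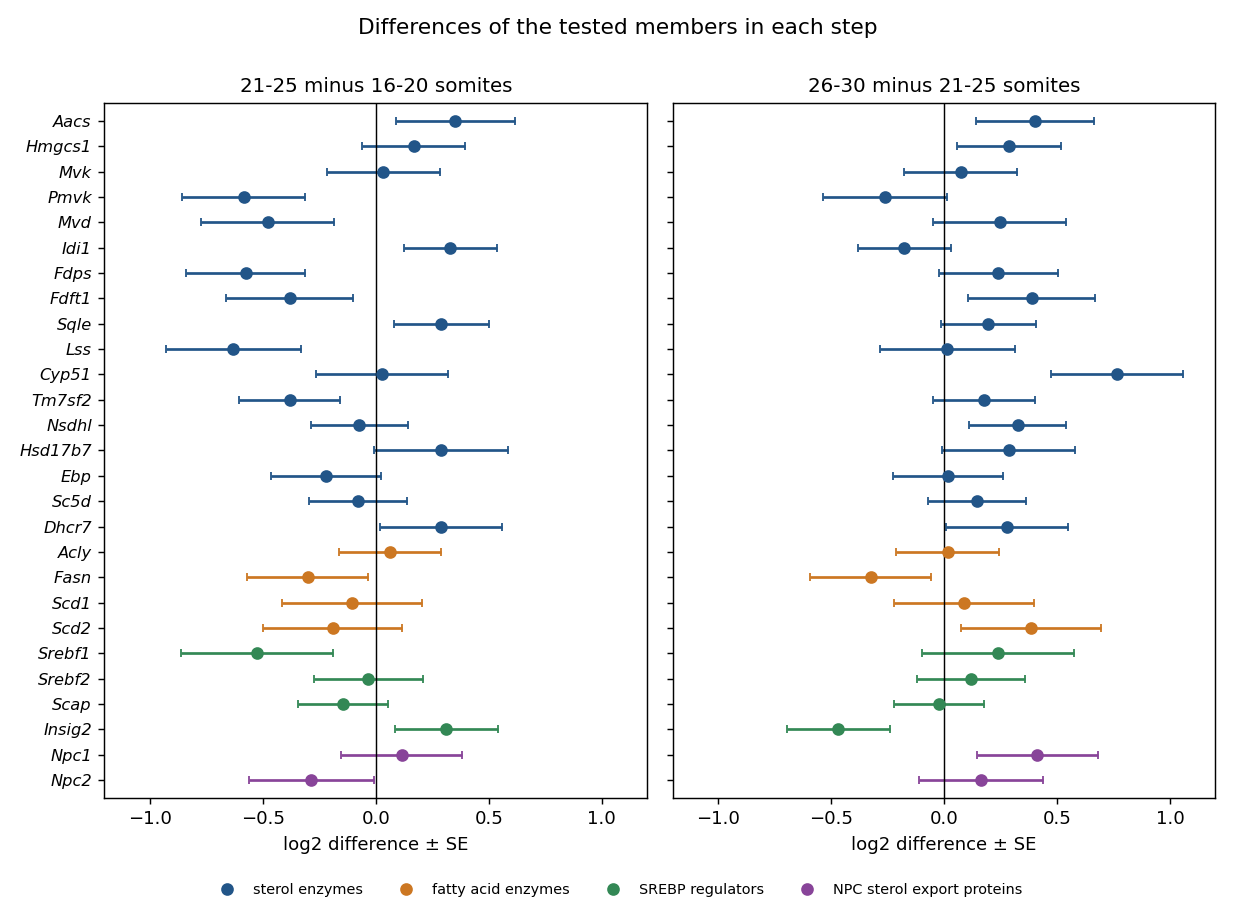
Log2 difference ± SE (limma) of each tested member in the first step, left, and the second step, right; members run down the page in the order of their pathways, and a vertical line marks 0. In the right panel 15 of the 17 sterol enzymes lie above 0, with Cyp51 farthest at 0.76, and Insig2 lies lowest at -0.47; both panels use the arrays of 21-25 somites.

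Tests that use all stages gave no call either. In the moderated F test of any difference between the 3 stages, 3 members, Pmvk, Cyp51 and Aacs, had an unadjusted p under 0.05, where 9.68% of all genes did. Their F-test p values were 0.0258, 0.0306 and 0.0424, and their adjusted p values 0.475, 0.487 and 0.502 in limma. For the difference between the steps no member had an unadjusted p under 0.05, against 6.24% of all genes, and 0 genes passed at the adjusted threshold.

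Array by array, the median deviation of the sterol enzymes from their own means was -0.10, 0.05 and 0.05 at 16-20 somites, -0.13, -0.19 and 0.08 at 21-25 somites, and 0.13, 0.10 and 0.03 at 26-30 somites. The last stage was above 0 on all 3 arrays, and so were 2 arrays of the first stage and 1 of the middle stage. The median over all tested genes also moved between arrays. It was -0.06, 0.06 and 0.03 at 16-20 somites, 0.12, -0.04 and 0.01 at 21-25 somites, and -0.02, 0.08 and -0.01 at 26-30 somites. For the fatty acid enzymes the values ran from -0.61 on 21-25 somites replicate 2 to 0.23 on 16-20 somites replicate 3, and those of 26-30 somites, -0.08 to 0.08, lay inside that range. The SREBP regulators stayed between -0.14 and 0.20. The array lowest for sterol and fatty acid enzymes, 21-25 somites replicate 2, was the one with the actin ratio of 45.3. It was also the lowest array for the median deviation of the 7 tested foregut endoderm markers, -0.42, of the 3 tested mesenchyme markers, -0.70, and of the 9 tested hepatic and yolk sac markers, -0.83. The endoderm markers did not move together there: Epcam, at 113, and Cdh1, at 79.3, had their lowest signal, while Krt8, at 5115, had its second highest of the 9 arrays. The part of RNA integrity or of cell composition in the members' values on this array was not tested.

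**Figure D4:**
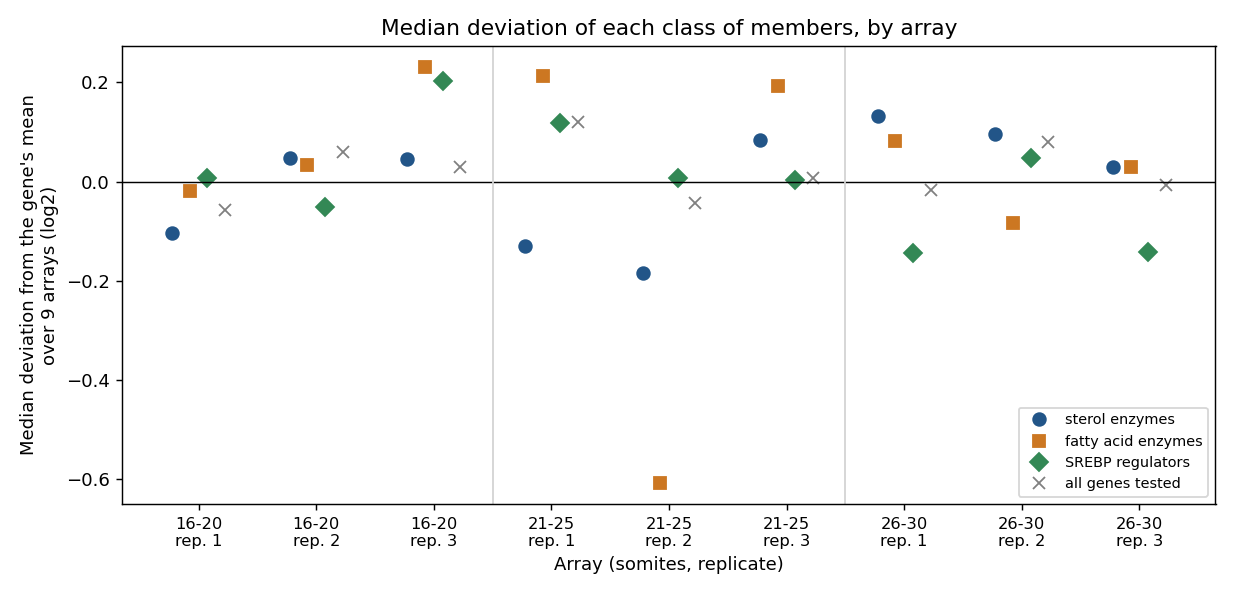
Median deviation of each class of members from the mean of each gene over 9 arrays (log2, vertical axis), for the 9 arrays in order of stage, beside the median of all tested genes. The sterol enzymes are lowest on 21-25 somites replicate 2 at -0.19, and the fatty acid enzymes are at -0.61 on that array. On all 3 arrays of 26-30 somites the sterol enzymes are above 0, where all tested genes are at -0.02, 0.08 and -0.01.

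On the array with high hepatic and cardiac markers, 16-20 somites replicate 2, the median deviation over all members was 0.05. It was -0.06 and 0.13 on the other 2 arrays of the stage. Single members are not described by this median. The array had the highest signal of the 9 for Lss, Fdft1, Fdps, Srebf1, Npc2 and Fasn, and the lowest for Idi1 and Insig2. The part of cell composition in these values was not tested. Without this array, the differences of 26-30 from 16-20 somites were 0.81 for Aacs, 0.70 for Cyp51, 0.50 for Sqle, -0.92 for Pmvk and -0.55 for Fasn.

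Weighting each array by how well it follows the fit changed the calls. The weights ran from 0.333 on 21-25 somites replicate 2 to 3.37 on 26-30 somites replicate 1, and 704 genes (8.12%) then passed an adjusted p of 0.05 between 26-30 and 16-20 somites. These included 4 members. Cyp51 had 0.91 ± 0.20 with an adjusted p of 0.0232, and Aacs 0.86 ± 0.20 with 0.0272. Fasn had -0.78 ± 0.20 with an adjusted p of 0.0348, and Pmvk -0.83 ± 0.22 with 0.0394. Without weights, the adjusted p values of these 4 were 0.351 to 0.424. The array with the highest weight is a narrow-range array, and in this comparison the narrow-range arrays are all at 26-30 somites. The part of array range in these calls was not tested.

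Other genes of sterol metabolism, which are not members, were taken from lists of the pathways. Of 7 further sterol synthesis genes, 4 were tested, and all 4 had positive differences between 26-30 and 16-20 somites, with a median of 0.55. The widest were Msmo1, the sterol methyl oxidase that acts after Cyp51, at 1.00 ± 0.41, and Lbr, a lamin receptor with sterol reductase activity, at 0.65 ± 0.31. Msmo1 had an unadjusted p of 0.0306 and an adjusted p of 0.400 in limma, and no gene of this list passed.

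Of 23 further genes of fatty acid synthesis, elongation and desaturation, 17 were tested, 7 with positive and 10 with negative differences and a median of -0.05. The widest were Acsl4, a fatty acid activating enzyme, at 0.78 ± 0.45, and the elongase Elovl1 at -0.68 ± 0.26, whose arrays at 26-30 somites were all below those of 16-20 somites. None passed at the adjusted threshold.

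Of 7 genes of SREBP processing and target degradation, 3 were tested. Rnf145, a ubiquitin ligase of the endoplasmic reticulum, gave 0.39 ± 0.38, and Erlin1, a scaffold protein of the same membrane, gave 0.18 ± 0.20 over the whole interval. In the first step Erlin1 gave 0.70 ± 0.20, with an unadjusted p of 0.00408 and an adjusted p of 0.314 in limma. In the second step, which shares the arrays of 21-25 somites, it gave -0.52 ± 0.20, with an unadjusted p of 0.0221 and an adjusted p of 0.998; its arrays of 21-25 somites lay above those of both other stages. Mbtps1, the site-1 protease that cuts the SREBP precursors, gave -0.02 ± 0.28 over the whole interval. Of 14 genes of sterol uptake, efflux and esterification, 9 were tested, 5 with positive differences. The widest were Apoe, a lipoprotein gene, at -1.56 ± 0.88, and the sterol efflux pump Abca1 at 0.55 ± 0.23, with an adjusted p of 0.414; its arrays at 26-30 somites were all above those of 16-20 somites. Apoe is also made by hepatic and yolk sac cells, whose markers were high on 16-20 somites replicate 2, and their part in its value was not tested.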

How the data were processed

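RNA from pooled mid-foreguts, 100 ng per pool, was amplified in 2 rounds before hybridisation, per the labels' protocols. The deposited values are linear intensities, for which the submitters' processing notes name MAS5. The sources used here give neither its version nor its scaling; trimmed array means were 499.9 to 500.6. Amplification favours the 3' ends of transcripts, which can set probe sets of 1 gene apart.

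Probe sets with 1 gene symbol (20380 of 22690, besides 64 controls, 691 with several symbols and 1555 with none) gave 12393 genes, with the probe set of highest mean standing for a gene. Values were taken as log2(signal + 26.1), the pseudocount being the 20th percentile. A filter at the 30th percentile of gene means, a signal of 80.1, left 8675 genes. Array medians lay within 0.36 on the log2 scale and no further normalization was applied. Stage means were fitted to all 9 arrays with limma 3.58.1 in R 4.3.3 (lmFit, eBayes with a trend), two-sided, with Benjamini-Hochberg adjustment over all 8675 genes at 0.05. The limma step was run on simulated data, in which the noise of a gene was independent and of equal spread on all arrays. Those data held no array-wide differences such as the narrow range, so the run does not show how the fit handles them. Values of single probe sets came from a fit of all probe sets with 1 gene symbol, without a filter. The alternative with every probe set on its own kept a filter at the 30th percentile of probe set means.

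Signals are given in full for members with an unadjusted p under 0.05 in a comparison, for the 3 widest of each class, and for the pairs of paralogues. The members and lists were chosen with earlier results of these data known. Replicate numbers were not used as pairs in the main fit. Deviations from stage means correlated across genes at -0.28 to 0.26 for same-numbered arrays. For differently numbered arrays of different stages they correlated at -0.51 to 0.43. The narrow-range array 21-25 somites replicate 1 had 0.26 and 0.43 with the narrow-range replicates 1 and 2 of 26-30 somites. Alternatives were quantile normalization, centring on array medians, pseudocounts of 6.53 and 104.4, other filters, no trend, array weights, a replicate block, other probe set rules, the 6 compared arrays alone, and fits without the narrow-range arrays or without each array. Motifs were searched in RefSeq promoter windows of GRCm38.p6.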

Additional observations from a re-analysis of the deposited data

How the results depend on the processing

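With 3 arrays a stage, no comparison of members passed the adjusted threshold except with array weights, which called 704 genes and 4 members over the whole interval, 24 genes in the second step, and 2 members in the F test. Leaving out each array called 0 to 3 genes in the first step, 0 to 1 over the whole interval and no member; without the narrow-range arrays 1 gene passed in the first step. Aacs, Pmvk, Sqle, Cyp51, Fasn, Fdps, Srebf1, Scap and Npc1 kept the sign of their whole-interval difference in every alternative run that tested them. Signs of near-zero values turned: Npc2 was 0.26 with quantile normalization, 0.14 without the narrow-range arrays and -0.33 to 0.0211 over the fits without 1 array. Srebf2 was -0.0099 with array weights, -0.083 without the narrow-range arrays and -0.0582 to 0.20 without 1 array. Averaging the probe sets of a gene gave 0.0716 for Scd1 and 0.0157 for Insig2, and Scd2 was -0.0134 without the narrow-range arrays. Without 1 array, Scd1 ran from -0.22 to 0.18 and Acly from -0.0537 to 0.22.

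Class medians moved as follows. With every probe set on its own, the sterol enzymes had 0.24 over the whole interval and 0.0338 in the first step, and the SREBP regulators 0.0058 and 0.14. With array weights, the SREBP regulators had -0.21 in the first step and -0.0771 in the second, and the sterol enzymes 0.13 in the second. Without the narrow-range arrays the sterol median of the second step was 0.0371. Without 1 array, sterol medians ran from 0.036 to 0.22 over the whole interval, -0.14 to 0.0356 in the first step and 0.12 to 0.28 in the second, and the SREBP medians from -0.14 to 0.0099 in the first step and -0.11 to 0.10 in the second. The fatty acid medians of 4 genes ran from -0.0237 to 0.11 over the whole interval, -0.32 to 0.0926 in the first step and -0.15 to 0.14 in the second, and without the narrow-range arrays they were -0.0891, -0.32 and 0.21. The count of members at an unadjusted p under 0.05 in the second step became 5 when 21-25 somites replicate 1 was left out, 2 for 26-30 somites replicate 3 and 0 for 26-30 somites replicate 1; in the first step it became 4 when 21-25 somites replicate 3 was, and 0 for any array of 16-20 somites or for 26-30 somites replicate 2 or 3. That first-step count was also 0 with arrays centred on their medians, the larger pseudocount, no filter, the filter at the 50th percentile, no trend, every probe set on its own, the 6 compared arrays alone and without the narrow-range arrays, and 2 with the replicate block. The second-step count was 7 with array weights, 2 with every probe set on its own, and 0 with probe sets averaged or without the narrow-range arrays. Over the whole interval the count was 8 with every probe set on its own or the 6 compared arrays alone. The cause of these shifts was not tested. With the replicate block, no gene and no member was called (0), the medians were 0.11, -0.07 and 0.24 for the sterol enzymes over the whole interval, the first and the second step, and the block changed no call at the adjusted threshold. Fits without the narrow-range arrays leave 1 array of 26-30 somites, which is assumed to vary like the others.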
